A study of Mus musculus with 8 samples.

Results

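Transcripts of 10 CC chemokine genes were examined in stromal cells sorted from the mouse colon. The genes were chosen by symbol, as the CC chemokines Ccl2, Ccl5, Ccl7, Ccl8, Ccl9, Ccl11, Ccl12, Ccl19, Ccl20 and Ccl25, with Ccl21 left aside. All 10 were found among the 24346 gene symbols measured. RNA came from 8 mice aged 12 weeks, 1 library per mouse. The 4 cKO mice carried Il10ra flox/flox alleles together with a Pdgfra cre transgene, and the 4 WT mice carried the same floxed alleles without it. Il10ra encodes the receptor chain that binds interleukin-10, and Pdgfra is a gene of intestinal fibroblasts and related mesenchymal cells, so that the deletion is directed to that lineage. Effects of the recombinase itself cannot be told apart from those of the deletion, because no WT mouse carried it. Cells were sorted as live, podoplanin-positive and negative for the leukocyte marker CD45, the endothelial marker CD31 and the epithelial marker EpCAM. The series' title places the question in the control of type I interferon signalling and large intestinal disease by the receptor in fibroblasts.

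CC chemokines are small secreted proteins with a pair of adjacent cysteines, which attract leukocytes through G protein-coupled receptors. CCL2, CCL7 and, in mice, CCL12 act on CCR2 and draw monocytes out of the blood, whereas CCL11 (eotaxin) acts on CCR3 and draws eosinophils. CCL5 attracts T cells and eosinophils, CCL9 acts on CCR1, and mouse CCL8 has been described as a ligand of CCR8. CCL19, CCL20 and CCL25 serve homing and act on CCR7, CCR6 and CCR9. Fibroblasts are a known source of Ccl2, Ccl7 and Ccl11 when stimulated through NF-kB, and Ccl11 also responds to interleukin-4 and interleukin-13 through STAT6.

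The sorted cells had high levels of 3 monocyte and eosinophil attractants, low levels of most other members, and no member that passed the test between genotypes. Ccl7, Ccl2 and Ccl11 made up 96.9% to 97.9% of the summed FPKM of the 10 genes in cKO libraries and 97.4% to 97.8% in WT libraries (FPKM, the fragments of a gene divided by its transcript length and by the library's mapped total). By the mean over all libraries Ccl7 ranked 43, Ccl2 74 and Ccl11 111 among the 24346 genes. The 10 genes together held 0.429% to 0.630% of all FPKM in cKO libraries and 0.5002% to 0.640% in WT libraries. Ccl2 had the lowest log2 difference of the 10, with 722.9 ± 241 FPKM in cKO and 927 ± 154 FPKM in WT (SD, n = 4 each). In limma over the 11506 genes whose FPKM averaged 1 or more, 7 members were tested (Ccl9, Ccl12 and Ccl20 fell under this limit), 3 with a higher and 4 with a lower mean log2 level in cKO. None of them reached an adjusted p under 0.05 (limma, Benjamini-Hochberg, adjusted p = 0.897 to 0.994), where 0.00869% of all genes tested did. None had an unadjusted p under 0.05 either, against 5.41% of all genes tested. The cKO and WT values overlapped for each of the 10 members, whereas they did not overlap for 3.26% of all genes tested.

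Of the 10 genes, 7 lie on chromosome 11 (mm10), and 5 of these form a run of 81.2 kb, in the order Ccl2, Ccl7, Ccl11, Ccl12 and Ccl8, all on the plus strand. Ccl12 and Ccl8 are separated by 11.8 kb, and the mean FPKM of Ccl8 over all libraries was 87.6 times that of Ccl12. The promoters of these neighbours are shown because they lie side by side in the cluster and differ so widely in transcript level. They run from 250 bases before to 50 bases after the annotated start (RefSeq, GRCm38.p6, plus strand), at chr11:82101595-82101894 for Ccl12 and chr11:82114935-82115234 for Ccl8. Capitals mark the letters TATAAAA.
Ccl12: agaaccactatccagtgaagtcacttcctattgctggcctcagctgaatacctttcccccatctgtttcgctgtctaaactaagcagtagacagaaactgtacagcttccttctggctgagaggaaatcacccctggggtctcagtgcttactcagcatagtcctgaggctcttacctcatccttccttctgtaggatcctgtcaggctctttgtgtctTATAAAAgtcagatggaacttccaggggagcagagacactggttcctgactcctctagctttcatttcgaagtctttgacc
Ccl8: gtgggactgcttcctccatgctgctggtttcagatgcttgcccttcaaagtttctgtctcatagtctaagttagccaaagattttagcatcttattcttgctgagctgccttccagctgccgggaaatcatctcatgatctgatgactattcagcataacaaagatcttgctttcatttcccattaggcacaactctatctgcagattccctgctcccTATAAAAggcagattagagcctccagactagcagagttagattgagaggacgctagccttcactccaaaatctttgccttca

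In Ccl12 these letters began 31 bases upstream of the start and in Ccl8 32 bases upstream. TATAAAA, read on either strand, was present in 3 of the 7 promoters listed for 6 members (Ccl8, Ccl9 and Ccl12) and in 5.48% of all 32851 promoters of the same length. This motif was chosen after the sequences were seen. The other motifs searched on both strands were the kappaB letters GGGNNTTCC, the interferon response core GAAANNGAA, the STAT site TTCNNNGAA and the STAT6 spacing of TTC, 4 of any base and GAA. The STAT and STAT6 letters differ only in their spacer, and both read the same on either strand. GGGNNTTCC was found in 4 of the 7 promoters and in 5.82% of all promoters. These 4 windows are shown with the match in capitals, at chr1:83116676-83116704 (plus strand), chr11:83578653-83578681 (minus), chr4:42756596-42756615 (minus) and chr8:4325198-4325226 (plus).
Ccl20: aatcaatgggGGAAAACCCcgggtgagaa
Ccl9: tttgaactttGGAAAGCCCcaagtcacct
Ccl19: gGGAAGACCCagaacgggcc
Ccl25: cggcgtaggcGGGACTTCCtgtcggcgtc

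The matches began 80 bases upstream of the start in Ccl20, 35 in Ccl9, 249 in Ccl19 and 2 in the more upstream of the starts of Ccl25. GAAANNGAA was found in the Ccl19 promoter only, 208 bases upstream of the RefSeq start, and in 8.56% of all promoters. By the GENCODE M21 positions the Ccl19 gene begins further upstream, at base 42756577 of chromosome 4. This GAAANNGAA match then lies just inside the gene, whereas its GGGNNTTCC match lies upstream of it. The STAT letters were in none of the 7, against 8.30% and 6.95% of all promoters. A match of letters is a description of the sequence and not evidence of binding. Promoters of Ccl2, Ccl5, Ccl7 and Ccl11 are not shown.

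**Figure D1:**
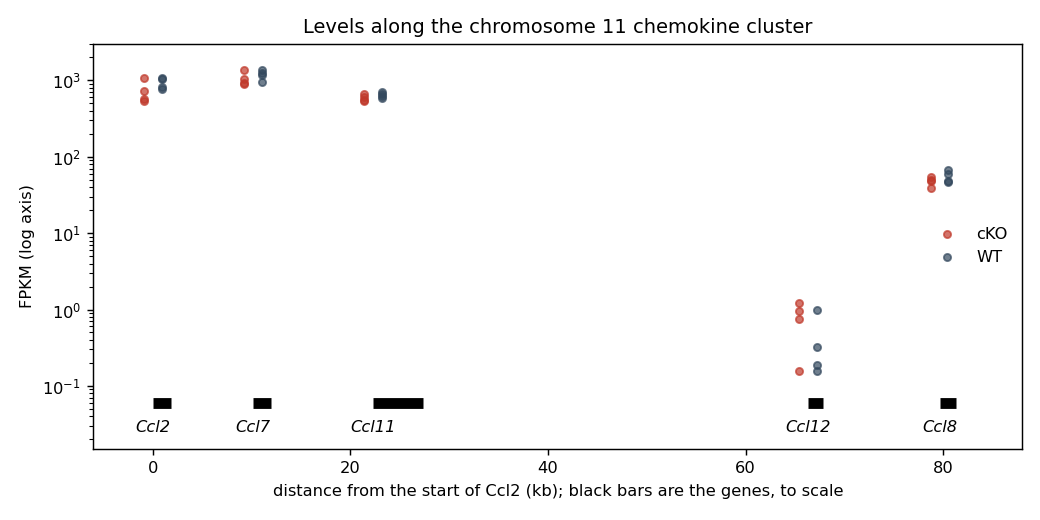
FPKM (log axis) of the 5 chemokine genes of the chromosome 11 cluster by distance from the start of Ccl2, with 1 point per library, cKO left of WT. Ccl2, Ccl7 and Ccl11 lie near or above 543 FPKM in every library, Ccl8 between 38.7 and 67.6, and Ccl12, which sits between Ccl11 and Ccl8, at or below 1.24.

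Ccl7, a ligand of CCR2, was the most abundant member. It had 1383, 889, 1056 and 930 FPKM in cKO replicates 1 to 4 and 1260, 1361, 968 and 1173 FPKM in WT replicates 1 to 4. The groups overlapped, with cKO replicate 1 above every WT library and cKO replicates 2 and 4 below every WT library. The means were 1064 ± 224 FPKM in cKO and 1190.5 ± 167 FPKM in WT (SD, n = 4 each), a log2 difference of -0.17 (SE 0.15; limma adjusted p = 0.931; two-sided exact permutation p = 0.4). Its 95% interval ran from -0.50 to 0.15.

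Ccl2, the main monocyte attractant of fibroblasts, had 1064, 543, 722 and 563 FPKM in cKO replicates 1 to 4. In WT replicates 1 to 4 it had 1035, 1083, 809 and 782 FPKM. Of the cKO libraries 3 lay below all WT libraries, whereas cKO replicate 1 was as high as WT replicates 1 and 2. The log2 difference was -0.40 (SE 0.20; limma adjusted p = 0.897; two-sided exact permutation p = 0.2), with a 95% interval from -0.85 to 0.06. A difference at or below that of Ccl2 was seen in 63 of the 11506 genes tested (0.548%). The coefficient of variation of Ccl2 was 33.3% in cKO and 16.6% in WT. Since these are bulk libraries, fewer cells of a type and less RNA per cell cannot be told apart.

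Summed markers of myeloid and epithelial cells, which the sort should remove, were highest in library cKO replicate 1. The monocyte and macrophage list summed to 163 FPKM in it, against 73.3 to 86.4 in the other cKO libraries and 70.6 to 101 in WT libraries. The epithelium list summed to 645, 359, 104 and 35.8 FPKM in cKO replicates 1 to 4 and to 50.8 to 95.4 FPKM in WT libraries, so that cKO replicate 2 was also above all WT libraries. Without cKO replicate 2 the log2 difference of Ccl2 was -0.28 (limma adjusted p = 0.869). Without cKO replicate 1 the 3 remaining cKO libraries had 609 ± 98.1 FPKM of Ccl2 (SD, n = 3) and lay below all 4 WT libraries, as did 4.24% of all genes tested in that direction. The log2 difference was then -0.60 (SE 0.14, 95% interval -0.92 to -0.28; limma adjusted p = 0.442; two-sided exact permutation p = 0.0571 over 35 arrangements). That of Ccl7 was -0.31 (SE 0.11; limma adjusted p = 0.672; exact permutation p = 0.114), with 958 ± 86.7 FPKM in these cKO libraries. Library cKO replicate 1 was the highest cKO library for both genes, so leaving it out could only lower both differences. Leaving out any other single library gave -0.47 to -0.28 for Ccl2 and -0.27 to -0.093 for Ccl7. Neither gene passed with or without cKO replicate 1. Without it 0.0348% of all genes tested were called, 6.77% had an unadjusted p under 0.05 in limma, Ccl2 and Ccl7 among them, and 7.44% had groups that did not overlap in either direction. The part of these other cells in the levels of Ccl2 and Ccl7 was not tested.

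Ccl12, the third CCR2 ligand, was near the limit of detection. Its FPKM values fell on whole multiples of a single step once scaled for the relative depth of the libraries (within 0.01 of a whole number), so that fragments could be counted. It rested on 8, 1, 5 and 6 fragments in cKO replicates 1 to 4 and on 6, 1, 2 and 1 fragments in WT replicates 1 to 4, and the groups overlapped. The totals were 20 fragments in cKO (exact Poisson 95% interval 12.2 to 30.9) and 10 in WT (4.80 to 18.4). These intervals cover counting error only. The levels were 0.775 ± 0.458 FPKM in cKO and 0.410 ± 0.383 FPKM in WT (SD, n = 4 each), with a log2 difference of 0.33 (SE 0.26; limma without a filter on low values, adjusted p = 1; exact permutation p = 0.371). In contrast, the FPKM values of Ccl2, at its transcript length of 813 bases, stood for an estimated 6181 to 12328 fragments in a library of mean depth. Those of Ccl7 stood for 9929 to 15433 and those of Ccl11 for 8906 to 11502. Counting error is small beside the spread between mice at that depth.

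**Figure D2:**
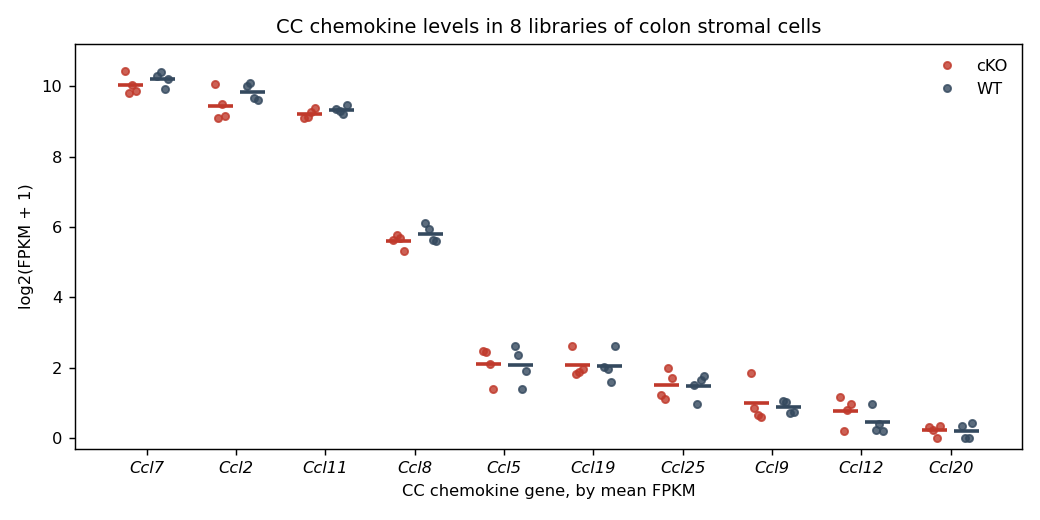
Level of each member as log2(FPKM + 1), with 1 point per library and a line at the group mean, cKO left of WT, ordered by mean FPKM over all 8 libraries. Ccl7, Ccl2 and Ccl11 lie together at the top, Ccl8 stands alone below them, and the 6 other genes lie at 5.18 FPKM or lower.

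Ccl11 (eotaxin, chromosome 11, 82057823 to 82062955, plus strand), the eosinophil attractant, was the steadiest of the abundant members. It had 543, 554, 614 and 667 FPKM in cKO replicates 1 to 4 and 659, 634, 591 and 701 FPKM in WT replicates 1 to 4. The lowest values were those of cKO replicates 1 and 2, and the groups overlapped. The means were 594 ± 57.5 FPKM in cKO and 646 ± 46.0 FPKM in WT (SD, n = 4 each), with coefficients of variation of 9.68% and 7.13%. The log2 difference was -0.12 (SE 0.08, 95% interval -0.30 to 0.05; limma adjusted p = 0.920; exact permutation p = 0.2). As a ratio of cKO to WT on the same scale, the interval ran from 0.814 to 1.04.

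Ccl8 had 48.7, 53.8, 50.2 and 38.7 FPKM in cKO replicates 1 to 4 and 67.6, 60.3, 48.6 and 47.1 FPKM in WT replicates 1 to 4. The groups overlapped, with cKO replicate 4 as the only cKO library below all WT libraries. The log2 difference was -0.21 (SE 0.13, 95% interval -0.51 to 0.08; limma adjusted p = 0.903; exact permutation p = 0.286). At its transcript length of 511 bases these values stood for an estimated 222 to 389 fragments in a library of mean depth.

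Ccl5, which attracts T cells and eosinophils, had 1.63 to 4.55 FPKM in cKO libraries and 1.61 to 5.12 FPKM in WT libraries. These values stood for 89 fragments in cKO (exact Poisson 95% interval 71.5 to 110) and 80 in WT (63.4 to 99.6). The mean levels were 3.50 ± 1.37 and 3.41 ± 1.55 FPKM (cKO and WT, SD, n = 4 each), and the log2 difference was 0.04 (SE 0.30, 95% interval -0.63 to 0.71; limma adjusted p = 0.994). This interval is wide at this depth and spread, and it is not a limit of detection.

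Ccl9, a CCR1 ligand made mainly by myeloid cells, had 2.61, 0.828, 0.583 and 0.516 FPKM in cKO replicates 1 to 4. In WT replicates 1 to 4 it had 1.06, 1.05, 0.644 and 0.680 FPKM. A single library, cKO replicate 1, held 142 of its 246 cKO fragments, while the WT libraries held 172 in all. The log2 difference was 0.11 (SE 0.29; limma without a filter, adjusted p = 1; exact permutation p = 0.886) and -0.18 without cKO replicate 1. Ccl6, a related myeloid chemokine outside the 10 genes, had 51.0, 13.3, 7.03 and 7.04 FPKM in cKO replicates 1 to 4 and 17.9985, 17.7, 8.23 and 7.73 FPKM in WT replicates 1 to 4. Thus cKO replicate 1 was highest for Ccl9, for Ccl6 and for the summed monocyte and macrophage markers, of which 9 of 11 tested had a higher mean in cKO (median log2 difference 0.24, and -0.04 without that library). Among WT libraries, replicates 1 and 2 were higher than replicates 3 and 4 for Ccl9, Ccl6 and Ccl2, whereas the summed markers did not follow this order (101, 70.6, 71.4 and 76.4 FPKM in WT replicates 1 to 4). Lyz2, the lysozyme gene and the most abundant of these markers, had 46.6 ± 20.1 FPKM in cKO and 37.7 ± 7.78 FPKM in WT. Tyrobp, a signalling adaptor, had 10.8 ± 5.86 FPKM in cKO and 8.70 ± 3.90 FPKM in WT, and the complement gene C1qb 7.89 ± 3.83 and 5.27 ± 0.718 FPKM. Cd68, a lysosomal marker, had 7.37 ± 0.805 FPKM in cKO against 9.12 ± 1.77 FPKM in WT, and in cKO replicate 1 it was at 7.67 FPKM (SD, n = 4 each). The part of myeloid cells in the Ccl9 level was not tested.

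**Figure D3:**
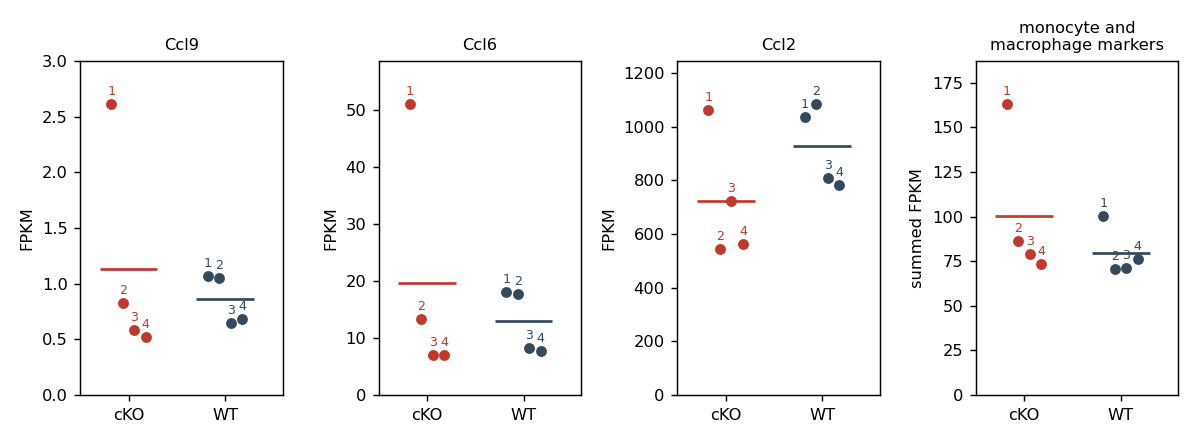
FPKM of Ccl9, Ccl6 and Ccl2 and the summed FPKM of 14 monocyte and macrophage markers, with 1 point per library numbered by replicate, a line at the group mean, and cKO left of WT. Library cKO replicate 1 is highest for Ccl9, Ccl6 and the markers, and lies among the highest WT libraries for Ccl2.

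The homing chemokines were low and did not pass the test. Ccl19, the CCR7 ligand of lymphoid tissue stroma, had 5.18, 2.55, 2.68 and 2.90 FPKM in cKO replicates 1 to 4 and 3.04, 2.90, 2.05 and 5.11 FPKM in WT replicates 1 to 4. A single library in each group, cKO replicate 1 and WT replicate 4, lay near 5 FPKM, and the groups overlapped. The totals were 133 fragments in cKO and 123 in WT, and the log2 difference was 0.02 (SE 0.23; limma adjusted p = 0.994). Cxcl13, a B cell attractant of follicular stroma, was highest in WT replicate 4 at 28.5 FPKM, whereas in cKO replicate 1 it was at 15.3 FPKM.

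Ccl25, the CCR9 ligand best known from small intestinal epithelium and thymus, had 1.33, 1.17, 2.95 and 2.26 FPKM in cKO replicates 1 to 4 and 1.82, 0.949, 2.17 and 2.41 FPKM in WT replicates 1 to 4. Its log2 difference was 0.03 (SE 0.23; limma adjusted p = 0.994). The cKO libraries with the most epithelial transcripts, replicates 1 and 2, had its lowest cKO values. The part of epithelial cells in the levels of Ccl25 and Ccl20 was not tested. Ccl20, the CCR6 ligand made by epithelium near lymphoid follicles, was seen in 8 fragments over the cKO libraries and 7 over the WT libraries. It was listed at 0 in cKO replicate 3 and in WT replicates 2 and 3, where a count of 0 allows up to 3 fragments, or 0.249 to 0.314 FPKM. In cKO replicate 1, with an epithelium sum of 645 FPKM, there were 3 fragments of Ccl20, as in WT replicate 1, with a sum of 95.4 FPKM. Ccl20 had too few fragments to show whether it follows the epithelium. Its log2 difference was 0.03 (SE 0.13; limma without a filter, adjusted p = 1).

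**Figure D4:**
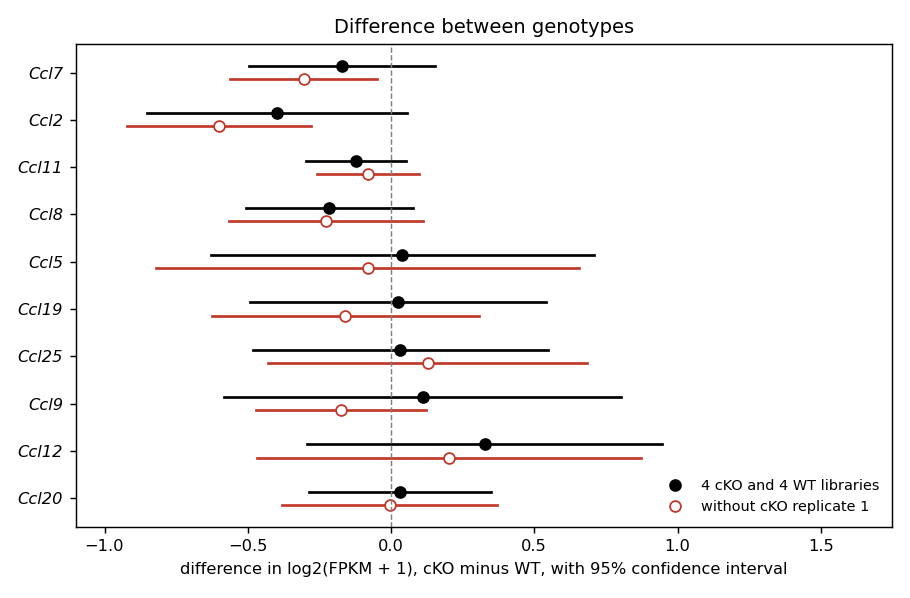
Difference in log2(FPKM + 1), cKO minus WT, for each member, as a point with its 95% confidence interval from limma. Filled points use all 8 libraries and open points leave out cKO replicate 1. All filled intervals include 0, and without that library those of Ccl2 (-0.92 to -0.28) and Ccl7 (-0.56 to -0.05) lie below 0, although neither gene passed after adjustment over all genes. It is the highest cKO library for both genes, so leaving it out could only lower their differences.

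The order of levels was Ccl7, Ccl2, Ccl11, Ccl8, Ccl5, Ccl19, Ccl25, Ccl9, Ccl12 and Ccl20 by mean FPKM over all libraries. Neighbours in this order were compared within libraries on the log2(FPKM + 1) scale, as a description, since the same libraries set the order. Ccl7 was above Ccl2 in 8 of 8 libraries, by a median of 0.46 (range 0.26 to 0.72). Ccl11 was above Ccl8 in 8 of 8, by 3.51 (3.26 to 4.07), and Ccl8 above Ccl5 in 8 of 8, by 3.57 (3.16 to 4.25). For the other 6 neighbours the order was not the same in all libraries: it held in 4 of 8 for Ccl5 over Ccl19 and in 6 of 8 for each of the rest. Among them, Ccl2 was above Ccl11 in 6 of 8 libraries, and the exceptions were cKO replicates 2 and 4. The ratio of Ccl2 to Ccl11 was 1.96, 0.980, 1.18 and 0.845 in cKO replicates 1 to 4 and 1.57, 1.71, 1.37 and 1.12 in WT replicates 1 to 4.

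Ccl2 and Ccl7 varied together across the 8 mice, and Ccl11 did not follow them. Of the 21 pairs among the 7 tested members, Ccl2 and Ccl7 had the highest correlation of log2(FPKM + 1), with Pearson's r of 0.93 (exact permutation p = 0.00233; adjusted p = 0.0490 over the pairs). Spearman's rho was 0.90 (exact permutation p = 0.00456; adjusted p = 0.0958), so that the relation passed by the first measure only. After each group's mean was subtracted r was 0.93, and without cKO replicates 1 and 2, the libraries farthest from the median of Ccl7, it was 0.87. Between Ccl2 and Ccl11 r was 0.0025 and rho -0.095 (exact permutation p = 0.995 and 0.840; adjusted p = 0.995 and 0.929). Ccl5 and Ccl8 had r of 0.77 and rho of 0.76 (exact permutation p = 0.0233 and 0.0368), which did not pass over the pairs (adjusted p = 0.244 and 0.386). Without cKO replicate 4 and WT replicate 1 their r was 0.50. The longest run of identical bases shared by the transcripts of Ccl2 and Ccl7 was 23, the longest among all pairs of members, and their aligned transcripts were 61.4% identical. All libraries enter these values with their own depth, which ranged from 0.857 to 1.08 of the mean.

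**Figure D5:**
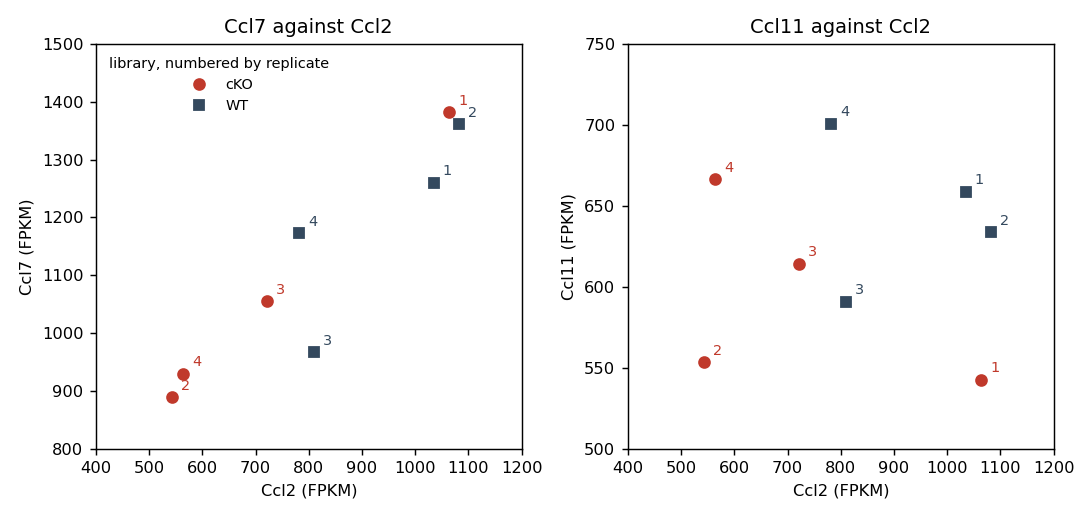
FPKM of Ccl7 (left) and Ccl11 (right) against FPKM of Ccl2, with 1 point per library, numbered by replicate, cKO as circles and WT as squares; the axes do not start at 0. Libraries with more Ccl2 have more Ccl7, with WT replicate 3 lowest relative to the others at its Ccl2 level, whereas Ccl11 shows no such order (r = 0.93 and 0.0025 on the log2 scale).

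Likeness to other genes was measured as Pearson's r over the 8 libraries among the 7927 genes whose FPKM averaged 5 or more. The genes most like Ccl2 were Tpm3, Hk2 and Arid5a (r = 0.98 each; rho = 0.90, 0.93 and 0.88), with exact permutation p of 0.000248, 0.000198 and 0.000794 for r. Tpm3 encodes a tropomyosin, Hk2 a hexokinase and Arid5a an RNA-binding protein that stabilises inflammatory transcripts. Those most like Ccl7 were Bloc1s2, Dcps and Fbl (r = 0.97, 0.96 and 0.95), and those most like Ccl11 were Mis12, Sap130 and AI464131 (r = 0.97, 0.95 and 0.95). None of the correlations with Ccl2, Ccl7 or Ccl11 passed after adjustment over all genes compared; those named had adjusted permutation p between 0.225 and 0.426. Ccl7 ranked 32 among the genes most like Ccl2, while Ccl11 ranked 3971.

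Among 14 other CC chemokines, 4 reached a mean FPKM of 1, all with a higher mean log2 level in cKO and none called (median log2 difference 0.32, and 0.12 without cKO replicate 1, against -0.01 over all genes tested). Ccl27a, a skin and mucosal chemokine, had 10.6 ± 2.17 FPKM in cKO and 9.39 ± 1.52 FPKM in WT, and Ccl4, made by activated leukocytes, 2.77 ± 1.78 and 1.77 ± 1.31 FPKM. Ccl6 had 19.6 ± 21.2 FPKM in cKO and 12.9 ± 5.70 FPKM in WT. Ccl21a, a CCR7 ligand, had 7.89 ± 2.97 FPKM in cKO and 1.12 ± 2.25 FPKM in WT (SD, n = 4 each; limma adjusted p = 0.761). Every cKO library was above every WT library, where 3.26% of all genes tested had groups that did not overlap. Ccl21a had 0.00033, 0.0017, 4.49 and 0.00061 FPKM in WT replicates 1 to 4, so its WT mean rests on replicate 3. Its near-identical copies Ccl21b and Ccl21c were listed at 0 in all 8 libraries. Since it is not given how fragments of such copies were assigned, the Ccl21a level is uncertain. The part of lymphatic endothelial cells in the Ccl21a level was not tested.

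Of 15 receptors and scavengers of CC chemokines, 6 were tested, 2 with a higher and 4 with a lower mean in cKO, and none was called (median log2 difference -0.04). The atypical receptors, which take up chemokines without signalling for migration, were the most abundant. Ackr4, which removes CCL19, CCL21 and CCL25, had 215 ± 24.4 FPKM in cKO and 249.7 ± 5.95 FPKM in WT (log2 difference -0.22, SE 0.07; limma adjusted p = 0.897). Ackr2, which removes inflammatory CC chemokines such as CCL2, had 16.6 ± 3.27 and 18.2 ± 1.53 FPKM, and Ackr1 17.0 ± 3.97 and 17.3 ± 2.06 FPKM (cKO and WT). Ackr3, a receptor of CXCL12, had 359.7 ± 10.3 FPKM in cKO and 374 ± 46.7 FPKM in WT, and Ccrl2 17.8 ± 1.83 and 17.5 ± 1.55 FPKM. The single signalling receptor with a mean of at least 1 FPKM was Ccr7, at 9.62 ± 4.21 FPKM in cKO and 8.93 ± 1.43 FPKM in WT. The monocyte receptor Ccr2 had 0.418 ± 0.347 and 0.336 ± 0.0521 FPKM, and the eosinophil receptor Ccr3 0.193 ± 0.180 and 0.149 ± 0.111 FPKM (cKO and WT, SD, n = 4 each). Ccr2 was highest in cKO replicate 1 at 0.929 FPKM.

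Receptors, transcription factors and feedback inhibitors of pathways upstream of these chemokines were lower in cKO in 21 of 26 cases. None was called, and 52.6% of all genes tested had a difference below 0. The median log2 difference of the list was -0.07. Nfkbia, the NF-kB inhibitor and target, had 817 ± 54.6 FPKM in cKO and 910 ± 58.7 FPKM in WT (log2 difference -0.16, SE 0.07; limma adjusted p = 0.897). Irf1 had 316 ± 10.9 and 333 ± 46.3 FPKM, Socs3 314 ± 16.4 and 330.3 ± 24.2 FPKM, and Il6st, the shared receptor chain of the interleukin-6 family, 145 ± 16.6 and 155 ± 14.02 FPKM (cKO and WT). Immediate-early genes, which tissue dissociation induces, summed to 16018 to 16987 FPKM in cKO libraries and 16008 to 16411 FPKM in WT libraries. Among these Fos had 3270 ± 198 and 3129 ± 150.1 FPKM, Egr1 2484 ± 55.6 and 2514 ± 129 FPKM, Dusp1 2130 ± 146 and 2049 ± 102 FPKM, and Junb 1262 ± 33.5 and 1226 ± 40.97 FPKM.

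The libraries had the makeup of fibroblasts, with Dcn at 7098 ± 277 FPKM in cKO and 7055 ± 277 FPKM in WT, and Col3a1 at 5286 ± 923 and 5546 ± 138 FPKM. Col1a1 had 2626 ± 477 and 2643 ± 228 FPKM, and Col1a2 1891 ± 321 and 1935 ± 98.0 FPKM. Eosinophil markers, of which Epx and Ear6 were at 0 in every library, summed to 0.482 to 2.104 FPKM in cKO libraries and 0.245 to 2.01 FPKM in WT libraries. Mast cell markers summed to 0.511 to 2.67 and 0.875 to 1.90 FPKM. Lymphocyte markers summed to 36.0 to 170 FPKM in cKO and 51.5 to 86.8 FPKM in WT libraries, and lymphatic endothelium markers to 1.38 to 3.39 and 0.710 to 1.55 FPKM. Of the lymphatic list, Flt4, Mmrn1 and Reln were higher in every cKO library than in every WT library, and Lyve1 and Prox1 overlapped. Mmrn1 had 0.922 ± 0.359 FPKM in cKO and 0.303 ± 0.124 FPKM in WT (SD, n = 4 each). Among all genes tested, 3.26% had groups that did not overlap. Blood endothelium markers summed to 9.35 to 22.3 FPKM in cKO and 5.06 to 9.10 FPKM in WT libraries, so that the sums were separated only narrowly. The 3 tested (Pecam1, Kdr and Plvap) each overlapped between groups. Of this list only Emcn, under 1 FPKM, did not overlap and was higher in cKO. The median log2 difference of the 3 tested was 0.47, and 0.33 without cKO replicate 1. The part of endothelial cells in the levels of the 10 chemokine genes was not tested. Smooth muscle markers summed to 42.0 to 84.3 FPKM in cKO and 49.97 to 57.8 FPKM in WT libraries. All 6 were tested and had a higher mean log2 level in cKO (median log2 difference 0.27, and 0.14 without cKO replicate 1). None of the tested members of these lists was called, where 0.00869% of all genes tested were. No eosinophil, mast cell or lymphatic endothelium marker averaged 1 FPKM, so none of them could be called. Each library detected 15815 to 16323 genes, and correlations of log2 values between libraries ran from 0.965 to 0.989. Il10ra, the targeted gene, had 0.273 to 0.636 FPKM in cKO and 0.403 to 0.842 FPKM in WT libraries (two-sided exact permutation p = 0.4). Which exons are floxed is not in the labels, and the level therefore checks no genotype.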

How the data were processed

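The authors deposited 1 table of FPKM per library. Per the labels' protocols, full-length cDNA was made from total RNA with a SMART-Seq HT kit and sequenced after a Nextera XT preparation. Per the submitters' processing notes, Cufflinks 2.2.1 with Cuffdiff, SAMtools 0.1.18, and TopHat2 2.1.1 with Bowtie2 2.3.5.1 were used with the mm10 build. For their settings and annotation, the sources used here give nothing. FPKM depends on the share of the library that other genes take, so a few abundant genes can shift all values.

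Values were taken as log2(FPKM + 1), and the genes averaging 1 FPKM or more were tested with limma 3.58.1 (R 4.3.3; lmFit, eBayes with trend, 1 factor with 2 groups) over all 8 libraries, with Benjamini-Hochberg adjustment over all genes tested and a threshold of 0.05. Differences on this scale understate those of low genes. Ccl9, Ccl12 and Ccl20 fell under the filter and were taken from a fit without it. The order of levels, planned with a sign-flip test, is given as a description because the same libraries set the order. The smallest two-sided exact permutation p for 4 against 4 libraries is 0.0286, over 70 arrangements. Relative depth was read from the steps between libraries in genes with a mean FPKM under 0.3, and fragments were counted for 5 members. Fragments of abundant members were estimated from transcript length (GENCODE M21, GRCm38) and the step sizes of 3 members, at the mean depth and not at each library's own depth. Promoters are those of RefSeq (GRCm38.p6), where 6 of 10 members matched. Protein sequences were not used here. Python 3.11.15, numpy 2.4.6, scipy 1.17.1, pandas 2.3.3, Biopython 1.88 and matplotlib 3.10.9 were used. The fit was checked on simulated data.

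The members and lists were chosen with earlier results of these data known. Named genes were all members, other CC chemokines and receptors averaging 1 FPKM or more, the 4 most abundant genes of the upstream, dissociation, fibroblast and monocyte lists, and the 3 genes most like each of the 3 most abundant members. Other marker lists are given by their sums. Ccr2, Ccr3, Cxcl13, the other genes named from the lymphoid stroma and endothelium lists, and the comparison of transcripts were added after values were seen. Replicate numbers showed no evident pairing (see the dependence on the processing). By the series' design text the libraries come from different mice. The alternatives were pseudocounts of 0.1 and 0.25, a filter at 5 FPKM or none, quantile, median-of-ratios and sum scaling, array weights, robust estimation or no trend in eBayes, a block on replicate number, and leaving out each library.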

Additional observations from a re-analysis of the deposited data

Results flagged for a closer look

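A library far from the other 3 of its group (Dixon's test for groups of 4) was seen in 18 of 156 groups of values examined, 11.5%, and 9 of the 18 were in cKO replicate 1. The test's rate of about 1 in 20 holds for independent normal values and is no measure of chance here. These groups share libraries, and summed markers were examined beside their own genes. A group with a single value above 0, such as Ear1 in WT, is outlying by construction. Of the members, the outlying values were Ccl9 (2.61 FPKM) and Ccl19 (5.18 FPKM), both in cKO replicate 1. The same library was the highest of its group for Ccl6 (51.0 FPKM), Nfkbia (898 FPKM), Irf1 (332 FPKM), Lyz2 (76.7 FPKM) and Actg2 (4.82 FPKM), and for the summed monocyte and macrophage markers (163 FPKM) and blood endothelium markers (22.3 FPKM). In the other cKO libraries the mast cell gene Cma1 was above 0 in replicate 2 alone (0.121 FPKM).

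Among WT libraries, the outlying values were Ccl21a in replicate 3 (4.49 FPKM), Dusp1 in replicate 4 (2203 FPKM), Col3a1 in replicate 1 (5750.4 FPKM), C1qb in replicate 3 (4.20 FPKM, the lowest), Ear1 in replicate 2 (0.489 FPKM), Cma1 in replicate 3 (0.608 FPKM), Jchain in replicate 1 (53.7 FPKM) and Plvap in replicate 4 (5.08 FPKM).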

How the results depend on the processing

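No member was called under any alternative that gave it a value. Ccl2, Ccl7, Ccl8 and Ccl11 were lower in cKO in all 19, from -0.60 to -0.28 for Ccl2, -0.31 to -0.093 for Ccl7, -0.29 to -0.12 for Ccl8 and -0.18 to -0.038 for Ccl11 (the last with quantile normalization). Ccl12 was higher in all 17 that gave it a value, from 0.20 without cKO replicate 1 to 0.80 with a pseudocount of 0.1. Where the direction of a small difference turned, the cause was not tested: with array weights Ccl5 was at -0.051, Ccl19 at -0.040, Ccl9 at -0.046 and Ccl20 at -0.00041, and with quantile normalization Ccl19 was at -0.0083 and Ccl25 at -0.024. Leaving out 1 library gave -0.19 to 0.28 for Ccl5, -0.16 to 0.21 for Ccl19, -0.14 to 0.16 for Ccl25, -0.18 to 0.24 for Ccl9 and -0.035 to 0.11 for Ccl20. Of all genes, 1 was called, 2 without the filter, and 1 to 4 when 1 library was left out (4 when it was cKO replicate 1, 3 for WT replicate 3 and 2 for cKO replicate 2). Replicate numbers showed no evident pairing of the mice, although so few libraries cannot exclude one. Deviations from group means correlated at 0.018 to 0.091 for libraries with the same number and at -0.12 to 0.13 for different numbers. Not every library correlated best with its own number. With the replicate block 1 gene and 0 members were called. The low levels of Ccl5, Ccl12 and Ccl20 limit what differences could be seen.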

Other observations

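CC chemokines of leukocytes and epithelium below a mean of 1 FPKM were highest in cKO replicate 1 in several cases, chosen here after their values were seen. Ccl28, an epithelial chemokine, had 1.49 FPKM in that library, 0.0910 to 0.358 FPKM in the other cKO libraries and 0.0902 to 0.318 FPKM in WT libraries. Ccl24, an eotaxin made by macrophages, had 0.949 FPKM there, 0 to 0.0912 FPKM in the other cKO libraries and 0 to 0.173 FPKM in WT libraries. Ccl22, made by dendritic cells, had 1.41 FPKM, against 0.154 to 0.433 and 0.117 to 0.810 FPKM. Ccl3 and Ccl17 did not follow this order. Ccl3 had its highest value of 1.01 FPKM in cKO replicate 3. Ccl17 was highest in WT replicate 4 at 0.679 FPKM, with 0.331 FPKM in cKO replicate 1.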
